A study of Mus musculus with 64 samples.

Results

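The genes described here are Cd28, Pde7a, Arhgap26, Syne1, Narf, Nin, Ctnna3, Ctxn3, 2610002M06Rik, and Gm10032, which had lower read counts in the gastrocnemius muscle of skeletal muscle-specific HIF1α knockout (HIF1α KO) mice than in that of fl/fl littermates. They are 10 of the 15241 genes that passed a filter on low counts and of the 55401 genes in the count table, and all 10 passed the filter. They were picked for this genotype difference, so their genotype values are a description. Counts of the 10 that passed a threshold in that comparison are given beside the share over all genes, and nothing is read from them. Tests are given for time of day, exercise, and sex, which played no part in the choice.

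Both genotypes were homozygous for a Hif1a allele with loxP sites around exon 2. HIF1α KO mice also carried a heterozygous HSA-Cre transgene, in which the human α-skeletal actin promoter drives Cre in skeletal muscle fibers, so that the other cells of the muscle kept the gene. The mice were males and females of 12 to 18 weeks on a C57BL/6JBomTac background of 2 to 9 generations. They ran on a treadmill for 60 min at 16 m/min and 5% incline or had a sedentary sham treatment, at ZT3 in the early rest phase or at ZT15 in the early active phase of a 12 h light cycle, and muscle was taken 3 h later. The 8 groups of genotype, time, and treatment each held 8 mice, 4 of each sex. The library of exercised HIF1α KO mouse 44 at ZT3 held 382 counts, none of them in the 10 genes, and was left out, which left 31 HIF1α KO and 32 fl/fl libraries with 2359780 to 40377963 counts (median 16236352). In bulk muscle, fewer cells of a type and less RNA per cell cannot be told apart.

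HIF1α is the oxygen-regulated subunit of a transcription factor that binds short hypoxia response elements in DNA and turns on genes of glycolysis, vessel growth, and iron handling. In muscle fibers it is degraded when oxygen is sufficient and accumulates in contracting muscle. The 10 genes belong to no single pathway. Cd28 is a costimulatory receptor of T cells, Pde7a a cAMP phosphodiesterase, and Arhgap26 (GRAF1) a GTPase-activating protein of membrane remodeling. Syne1 (nesprin-1) anchors nuclei to the cytoskeleton, Narf binds prelamin A, and Nin (ninein) anchors microtubules. Ctnna3 (αT-catenin) links cadherins to actin, Ctxn3 is a small membrane protein of the cortexin family, 2610002M06Rik (Chmp1b2) encodes an ESCRT-III protein, and Gm10032 is a long intergenic noncoding RNA.

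The genes lie on 8 chromosomes of GRCm38. Cd28 is on chromosome 1 from 60716800 to 60773359, Pde7a on chromosome 3 from 19223108 to 19311322, Narf on chromosome 11 from 121237253 to 121255856, and Gm10032 on chromosome 14 from 66784480 to 66793758. Chromosome 10 holds Syne1 from 5020917 to 5551482 and Ctnna3 from 63430098 to 65003667, and chromosome 18 holds Arhgap26 from 38993145 to 39376284 and Ctxn3 from 57468516 to 57478133. 2610002M06Rik is on chromosome X from 107782751 to 107816334. Nin, on chromosome 12 from 70011435 to 70113717, is the only one on the chromosome of Hif1a, and 3.79 Mb lie between them. Genes annotated on the opposite strand overlap Pde7a, Syne1, Arhgap26, Ctnna3, Nin, Ctxn3, and 2610002M06Rik. The library kit keeps the strand, but the strand setting of the counting is not given in the sources used here.

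Per kilobase of exon, Narf had the highest mean level over the 63 libraries (25.6 CPM per kb), followed by Ctxn3 (14.2) and Pde7a (14.04). Syne1 was at 5.15 CPM per kb, Nin at 3.00, Ctnna3 at 2.59, 2610002M06Rik at 1.36, and Arhgap26 at 1.29. The lowest were Gm10032 at 0.460 and Cd28 at 0.352 CPM per kb. These 2 genes therefore rest on few reads, a median of 24 counts per library (1 to 216) for Cd28 and of 11 (0 to 64) for Gm10032. Gm10032 had no read in 4 libraries, all from females, where a count of 0 allows up to 0.179 to 1.18 CPM (3 counts, counting error only).

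The core of the hypoxia response element, ACGTG or GCGTG, was searched on both strands of the RefSeq promoter windows (GRCm38.p6, 250 bases before to 50 after a start) of Syne1, Narf, Ctnna3, Nin, and 2610002M06Rik. At least 1 core was present in 7 of the 11 windows, and 43.8% of 32851 promoters held one. Each of the 5 genes had a core in at least 1 window. The share of promoters is no measure for that count of genes, since Syne1, Ctnna3, and Nin had more than 1 window. The 250 bases before the start are shown for the 4 genes with a core in them, with both cores in capitals on either strand (CACGT and CACGC are their reverse complements). They are chr11:121236986-121237235 on the plus strand for Narf, chr10:63429848-63430097 on the plus strand for Ctnna3, chr12:70112036-70112285 on the minus strand for Nin, and chrX:107816335-107816584 on the minus strand for 2610002M06Rik.
Narf: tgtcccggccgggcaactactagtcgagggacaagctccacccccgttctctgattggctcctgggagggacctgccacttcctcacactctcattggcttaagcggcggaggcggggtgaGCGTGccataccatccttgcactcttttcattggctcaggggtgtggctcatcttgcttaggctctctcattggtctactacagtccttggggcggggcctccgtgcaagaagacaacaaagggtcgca
Ctnna3: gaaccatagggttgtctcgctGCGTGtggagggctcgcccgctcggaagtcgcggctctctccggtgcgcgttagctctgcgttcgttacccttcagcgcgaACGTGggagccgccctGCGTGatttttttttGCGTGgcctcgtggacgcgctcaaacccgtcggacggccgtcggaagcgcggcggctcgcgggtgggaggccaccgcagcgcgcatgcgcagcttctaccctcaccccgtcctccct
Nin: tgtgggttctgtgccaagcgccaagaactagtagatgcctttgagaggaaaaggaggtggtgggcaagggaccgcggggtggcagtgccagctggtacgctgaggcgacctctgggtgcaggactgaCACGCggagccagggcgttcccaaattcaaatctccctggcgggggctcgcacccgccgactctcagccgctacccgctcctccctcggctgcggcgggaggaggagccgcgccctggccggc
2610002M06Rik: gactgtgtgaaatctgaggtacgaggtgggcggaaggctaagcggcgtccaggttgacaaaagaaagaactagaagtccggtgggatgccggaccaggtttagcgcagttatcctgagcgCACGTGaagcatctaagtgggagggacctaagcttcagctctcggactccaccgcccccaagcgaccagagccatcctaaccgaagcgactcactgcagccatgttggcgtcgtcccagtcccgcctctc
The Ctnna3 stretch held 3 GCGTG and 1 ACGTG, and those of Narf and Nin held 1 GCGTG each. Another start of Nin, not shown, also had 1 GCGTG in the 250 bases before it (chr12:70111630-70111879, minus strand). In 2610002M06Rik the capitals spell the E-box CACGTG, which contains ACGTG on both strands and was present in 7.15% of promoters. These matches are a description of the letters and not of binding.

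Whether each library carried the levels of its labelled genotype was a check added after the data had been seen, as was its cutoff of 6 genes. Over the 10 genes, 58 of the 63 libraries had at most 4 genes nearer to the sex-matched median of the other genotype than to that of their own, and 52 had at most 2. The other 5 libraries had 6 to 9. They were those labelled HIF1α KO from mice 9 (exercised, ZT15, female) and 43 (sedentary, ZT15, male), and those labelled fl/fl from mice 7 (sedentary, ZT3, female), 8 (sedentary, ZT15, male), and 40 (sedentary, ZT15, female). Cd28 was at 0.864, 1.08, and 0.275 CPM in the libraries labelled fl/fl from mice 7, 8, and 40, where the other fl/fl libraries of their sex had medians of 3.48 in females and 3.23 in males. Pde7a was at 145 CPM in mouse 9 and 150 CPM in mouse 43, beside medians of 67.5 and 84.5 in the other HIF1α KO females and males. These libraries held 6537197 to 21373659 counts, and the sex label matched the balance of Xist and Ddx3y counts in all 5, as in all 63. Whole-gene Hif1a counts cannot check the genotype, at 36.4 ± 4.80 CPM in HIF1α KO (SD, n = 31) against 36.4 ± 6.31 CPM in fl/fl (SD, n = 32). Results are given with all 63 libraries and, where named, without these 5. Since the 5 were recognized by the same genes, leaving them out enlarges the genotype differences by construction.

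**Figure D1:**
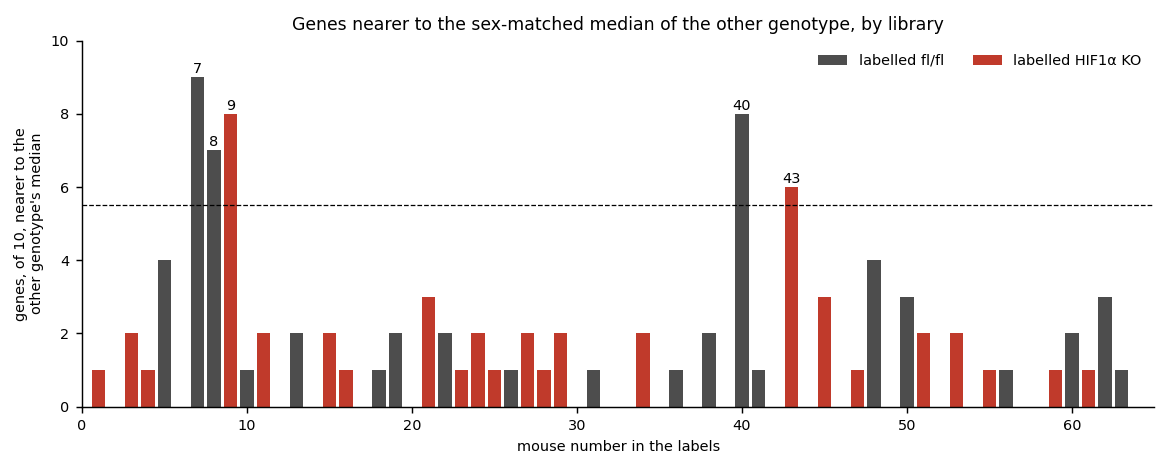
Number of the 10 genes, on a linear axis, that lay nearer to the sex-matched median of the other genotype, for each library by its mouse number (gray, labelled fl/fl; red, labelled HIF1α KO). The 5 numbered bars, at 6 to 9 genes, stand above the dashed line, and the other 58 libraries are at 4 or fewer.

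Cd28 had the largest genotype difference of the 10. In sedentary mice at ZT3, HIF1α KO libraries ran from 0.196 to 1.25 CPM with a median of 0.956, and fl/fl libraries from 0.864 to 4.85 with a median of 3.11. In exercised mice at ZT3 the ranges were 0.519 to 1.84 (median 0.915) and 1.88 to 4.43 (median 3.11), and in exercised mice at ZT15 they were 0.324 to 2.04 (median 0.773) and 2.48 to 3.63 (median 3.26). In both exercised pairs every HIF1α KO library was below every fl/fl library, and in sedentary mice at ZT3 only the library of mouse 7 overlapped. In sedentary mice at ZT15, HIF1α KO libraries ran from 0.0498 to 3.17 CPM (median 0.778) and fl/fl libraries from 0.275 to 5.94 (median 3.96). Without mice 8, 40, and 43 the HIF1α KO libraries ended at 1.80 CPM and the fl/fl libraries began at 3.09 CPM. The average log2 fold change over the 4 combinations was −1.73 (SE 0.199), a level of 30.2% of fl/fl. Without the 5 libraries it was −2.01, and the highest of the 29 HIF1α KO libraries (1.84 CPM) was below the lowest of the 29 fl/fl libraries (1.88 CPM).

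Cd28 is best known from T cells, whose marker genes were near the detection limit in both genotypes. Of 16 T-cell markers, among them Cd3e, Cd4, Cd8a, and Trac, 15 were too low to be tested, and none was at 0 in every library. Their summed level was 0.474 to 3.10 CPM in HIF1α KO (median 1.23) and 0.292 to 2.43 CPM in fl/fl libraries (median 1.20). Cd28 itself was at 0.980 ± 0.643 CPM in HIF1α KO (SD, n = 31) against 3.29 ± 1.25 CPM in fl/fl (SD, n = 32). Cd2, the 1 marker tested, had a log2 fold change of 0.04 and did not pass. The part of T cells in the difference of Cd28 was not tested further.

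Pde7a, which degrades cAMP, was at 80.2 ± 24.6 CPM in HIF1α KO (SD, n = 31) against 136 ± 29.8 CPM in fl/fl (SD, n = 32). In exercised mice at ZT3 the highest HIF1α KO library (110 CPM) was below the lowest fl/fl library (128 CPM). In exercised mice at ZT15 the HIF1α KO libraries ran from 52.5 to 145 CPM (median 69.9) and the fl/fl libraries from 127 to 229 CPM (median 138). Here only the library of mouse 9 reached into the fl/fl range, and the remaining 7 HIF1α KO libraries ended at 102 CPM. The log2 fold change was −0.84 in sedentary and −0.81 in exercised mice at ZT3, −0.54 in sedentary and −0.85 in exercised mice at ZT15, and −0.76 (SE 0.0873) on average. Without the 5 libraries it lay between −0.81 and −1.06 in the 4 combinations.

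Arhgap26, which inactivates small GTPases, differed by genotype and, as tested below, by exercise. It was at 10.03 ± 3.49 CPM in HIF1α KO (SD, n = 31) against 14.9 ± 6.01 CPM in fl/fl (SD, n = 32), with an average log2 fold change of −0.53 (SE 0.0799). The difference was −0.78 in exercised and −0.31 in sedentary mice at ZT3, and −0.50 and −0.55 at ZT15. The ranges of the 2 genotypes overlapped in all 4 combinations. In exercised mice at ZT3 the HIF1α KO range of 6.58 to 15.2 CPM only just met the fl/fl range of 15.0 to 26.8 CPM. A second identifier with the same symbol held at most 1 count in any library.

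Narf, the partner of prelamin A, overlapped between the genotypes with all libraries and less so once the 5 were set aside. Its level was 103 ± 18.2 CPM in HIF1α KO (SD, n = 31) against 143 ± 25.2 CPM in fl/fl (SD, n = 32). The highest HIF1α KO value was that of mouse 43 at 170 CPM, while the other 7 libraries of its group, sedentary mice at ZT15, ended at 105 CPM. The lowest fl/fl values were those of mice 8, 7, and 40 at 78.9, 94.6, and 106 CPM. In that group the log2 fold change of Narf moved from −0.25 to −0.53 without the 5 libraries. Over all 63 libraries, 890 of 992 pairs of a HIF1α KO and a fl/fl library had the HIF1α KO library lower. Over the remaining 58 libraries 835 of 841 pairs did. All 5 were nearer to the other genotype for Narf, so leaving them out favors this by construction, and nothing is read from it.

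Syne1 was at 174 ± 23.04 CPM in HIF1α KO (SD, n = 31) against 242 ± 62.1 CPM in fl/fl (SD, n = 32). The fl/fl libraries spread far more widely, from 120 to 373 CPM, than the HIF1α KO libraries, from 134 to 220 CPM, and 18 fl/fl libraries were above every HIF1α KO library. These ranges pool both sexes, with means of 287 CPM in fl/fl males and 197 CPM in fl/fl females. The HIF1α KO means were 184 CPM in males and 165 CPM in females. Nin had the smallest difference of the 10, at 45.2 ± 5.36 CPM (SD, n = 31) against 56.5 ± 6.27 CPM (SD, n = 32), and also the smallest spread between libraries of the same group and sex (residual SD 0.168 on the log2 scale). For Syne1 and Nin the average log2 fold changes were −0.44 (SE 0.0548) and −0.32 (SE 0.0435).

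Ctnna3, known as a catenin of heart muscle, was at 15.0 ± 3.11 CPM in HIF1α KO (SD, n = 31) against 22.4 ± 4.71 CPM in fl/fl (SD, n = 32), and its average log2 fold change was −0.57 (SE 0.0755). In sedentary mice at ZT15 the HIF1α KO libraries other than that of mouse 43 ran from 9.47 to 15.8 CPM, and the fl/fl libraries other than those of mice 8 and 40 from 20.9 to 29.3 CPM. With those 3 libraries the groups overlapped. 2610002M06Rik, of the ESCRT-III membrane scission machinery, was at 6.45 ± 2.04 CPM (SD, n = 31) and 10.8 ± 2.54 CPM (SD, n = 32). Its average log2 fold change of −0.74 (SE 0.0958) became −0.91 without the 5 libraries, and all 5 were nearer to the other genotype for this gene, as they were for Cd28 and Narf.

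Ctxn3 was at 19.2 ± 4.40 CPM in HIF1α KO (SD, n = 31) against 26.3 ± 6.70 CPM in fl/fl (SD, n = 32), with an average log2 fold change of −0.44 (SE 0.0631). The noncoding Gm10032 had the most uneven difference of the 10. Its level was 0.682 ± 0.638 CPM in HIF1α KO (SD, n = 31) against 1.38 ± 1.14 CPM in fl/fl (SD, n = 32). The log2 fold change of Gm10032 was −1.68 (SE 0.336) in exercised and −0.36 (SE 0.328) in sedentary mice at ZT15, and −1.26 (SE 0.382) and −0.82 (SE 0.338) at ZT3.

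**Figure D2:**
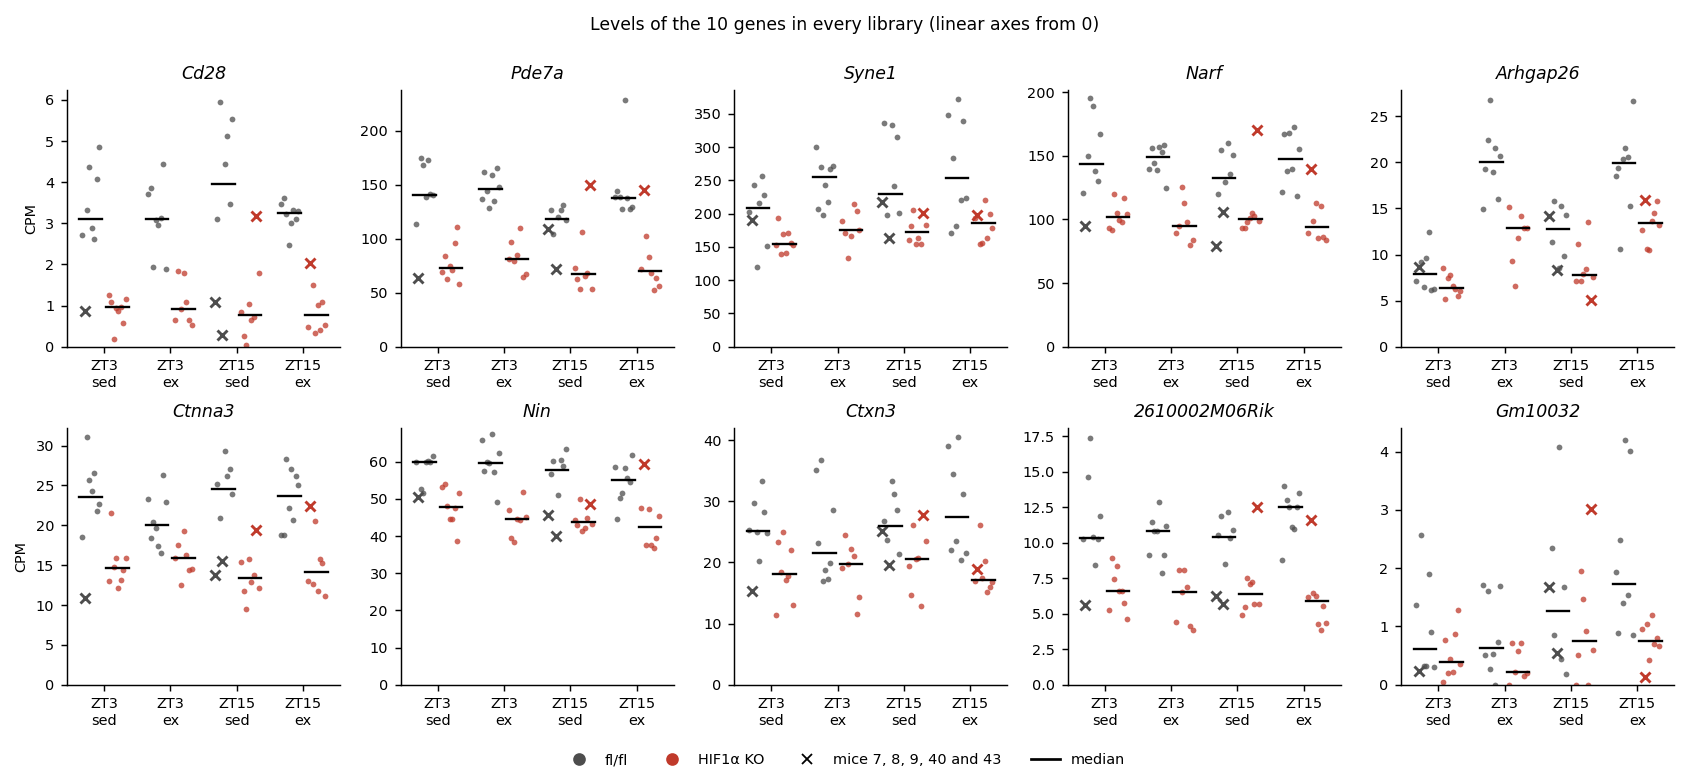
CPM (linear axes from 0) of each gene in every library by time of day (ZT3, ZT15) and treatment (sed, sedentary; ex, exercised), with fl/fl in gray, HIF1α KO in red, and a black line at each group's median. Crosses mark the 5 libraries nearer to the other genotype, such as mouse 43 with Narf at 170 CPM among HIF1α KO libraries and mouse 7 with Cd28 at 0.864 CPM among fl/fl libraries.

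Across the 4 combinations of time and treatment, all 40 estimates for the 10 genes were below 0, as the choice of the genes favored, and 11.4% of all genes tested were below 0 in all 4. On average over the combinations 10 of 10 passed an adjusted p under 0.1 as lower, where 3.58% of all genes did. In sedentary mice at ZT3, 5 of 10 passed (0.23% of all genes lower), in exercised mice at ZT3, 7 of 10 (0.558%), in sedentary mice at ZT15, 3 of 10 (0.0394%), and in exercised mice at ZT15, 8 of 10 (0.289%). With the 5 libraries left out, 7, 8, 7, and 9 of 10 passed, beside 0.467%, 0.635%, 0.318%, and 0.544% of all genes. Since these genes were chosen on this comparison, nothing is read from the counts.

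Complete separation of the genotypes was less frequent. With all libraries, 0 of 10 genes had every HIF1α KO library below every fl/fl library in sedentary mice at ZT3 (0.0197% of all genes) and at ZT15 (0.00656%). Cd28 and Pde7a did in exercised mice at ZT3 (0.131%) and Cd28 in exercised mice at ZT15 (0.0131%). Without the 5 libraries there were 3 in sedentary mice at ZT3 (Cd28, Pde7a, and Narf), the same 2 in exercised mice at ZT3, 5 in sedentary mice at ZT15 (Cd28, Narf, Ctnna3, Nin, and 2610002M06Rik), and 4 in exercised mice at ZT15 (Cd28, Pde7a, Narf, and 2610002M06Rik), beside 0.0919%, 0.131%, 0.217%, and 0.0853% of all genes. Over all times and treatments 0 of 10 did with all libraries (0% of all genes). Without the 5 libraries Cd28 alone separated 29 from 29 libraries, and it was the only one of the 15241 genes lower in this way (0.00656%). The 5 libraries were recognized by these 10 genes, and all 5 lay nearer to the other genotype for Cd28. Leaving them out therefore favors separation of the 10 by construction. The shares over all genes without the 5 libraries are thus no fair comparison, and nothing is read from them.

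**Figure D3:**
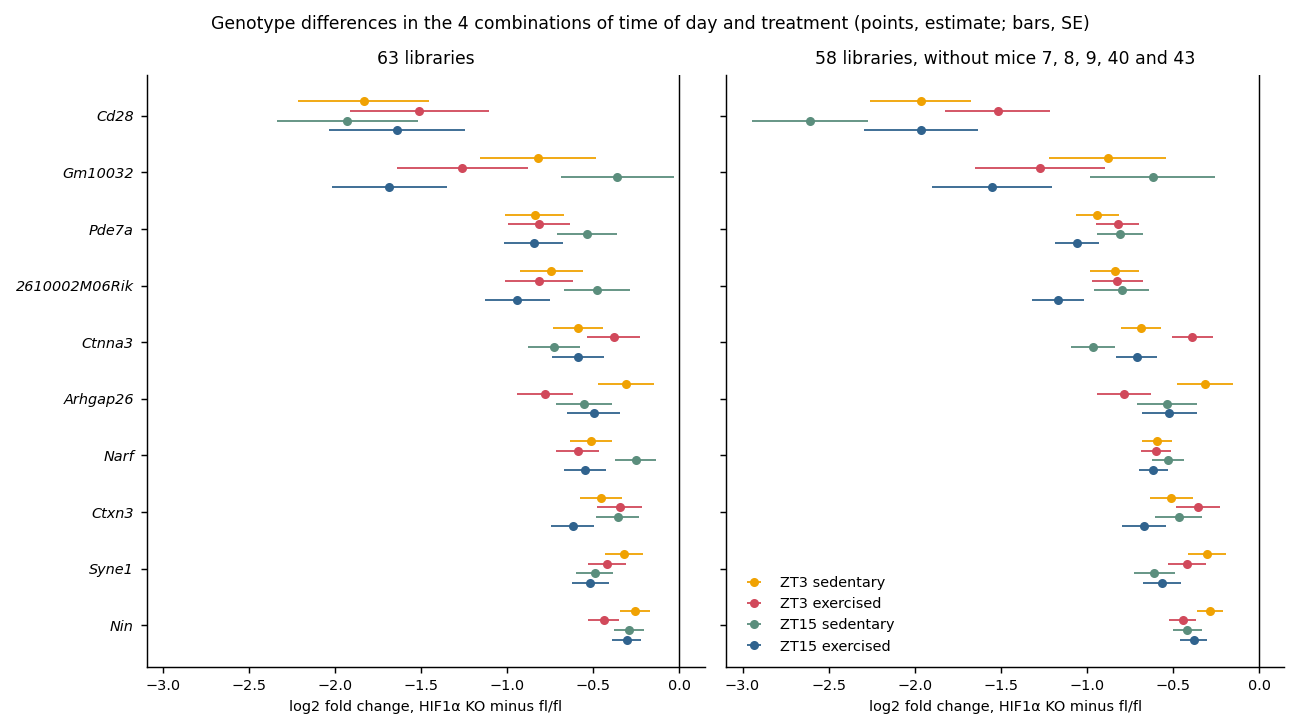
Log2 fold change, HIF1α KO minus fl/fl (points), with its SE (bars), for each gene in each combination of time of day and treatment, with all 63 libraries on the left and without the 5 libraries on the right. All points lie below 0, Cd28 lies between −1.51 and −1.93 on the left, and Gm10032 is the most uneven with −0.36 to −1.68.

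Whether the genotype difference itself depended on time or treatment was tested by interactions in edgeR's quasi-likelihood model. No gene passed for genotype by time of day (0 of 15241, with 648 at an unadjusted p under 0.05) or for genotype by exercise (0 of 15241, with 306), and DESeq2 called 0 in both. Among the 10 genes only Gm10032 had an unadjusted p under 0.05, for genotype by exercise. Its difference of −0.88 (SE 0.347, 95% interval −1.56 to −0.20) did not pass over all genes (adjusted p = 1.00 from edgeR). For Cd28 the interval of that difference, −0.47 to 1.08, was wide. For Nin, at −0.27 to 0.07, it was narrow relative to the other genes.

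Arhgap26 rose with exercise, and none of the other 9 genes passed the test. In fl/fl mice at ZT3, Arhgap26 ran from 6.10 to 12.5 CPM in sedentary (median 7.88) and from 15.0 to 26.8 CPM in exercised mice (median 20.01), without overlap. In HIF1α KO mice at ZT3 it ran from 5.14 to 8.59 CPM (median 6.39) and from 6.58 to 15.2 CPM (median 12.9). At ZT15 the medians rose from 12.8 to 19.9 CPM in fl/fl mice and from 7.76 to 13.4 CPM in HIF1α KO mice. The log2 fold change, exercised minus sedentary, was 0.85 (SE 0.0800, adjusted p = 4.54e-12 from edgeR), where 2.84% of all genes were called. It was 0.96 (adjusted p = 2.68e-08) in fl/fl mice and 0.75 (adjusted p = 3.68e-05) in HIF1α KO mice, both by edgeR, and the genotype by exercise difference of −0.21 (95% interval −0.52 to 0.11) did not pass. Exercised HIF1α KO mice at ZT15 (median 13.4 CPM) were thus near sedentary fl/fl mice at the same time (12.8 CPM). With the 5 libraries left out the exercise difference was 0.82.

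By edgeR 0 of the other 9 genes passed for exercise, 1 had an unadjusted p under 0.05 (10.9% of all genes), and DESeq2 called 0 of them. That gene was Syne1, at 0.16 on the log2 scale (SE 0.0545, adjusted p = 0.127 by edgeR). The intervals of Narf (−0.12 to 0.11), Nin (−0.10 to 0.07), and Ctxn3 (−0.12 to 0.13) allow only small changes, and that of Cd28 (−0.36 to 0.40) allows larger ones.

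Gm10032 and Arhgap26 were higher at ZT15 than at ZT3. In fl/fl mice Gm10032 ran from 0 to 2.57 CPM at ZT3 (median 0.634) and from 0.191 to 4.196 CPM at ZT15 (median 1.603), and in HIF1α KO mice from 0 to 1.28 CPM (median 0.352) and from 0 to 3.02 CPM (median 0.750). The ranges overlapped, and the log2 fold change of Gm10032, ZT15 minus ZT3, was 0.95 (SE 0.174, adjusted p = 0.000103 from edgeR), with 0.94 in fl/fl mice and 0.96 in HIF1α KO mice. That of Arhgap26 was 0.26 (SE 0.0798, adjusted p = 0.0402 from edgeR). For time of day, 8.02% of all genes were called. Hif1a itself was lower at ZT15, by −0.19 on the log2 scale (SE 0.0492, adjusted p = 0.00827 from edgeR). Syne1 had a log2 fold change of 0.14 and missed the threshold with all libraries (adjusted p = 0.147) but not without the 5 (adjusted p = 0.0818), both by edgeR.

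**Figure D4:**
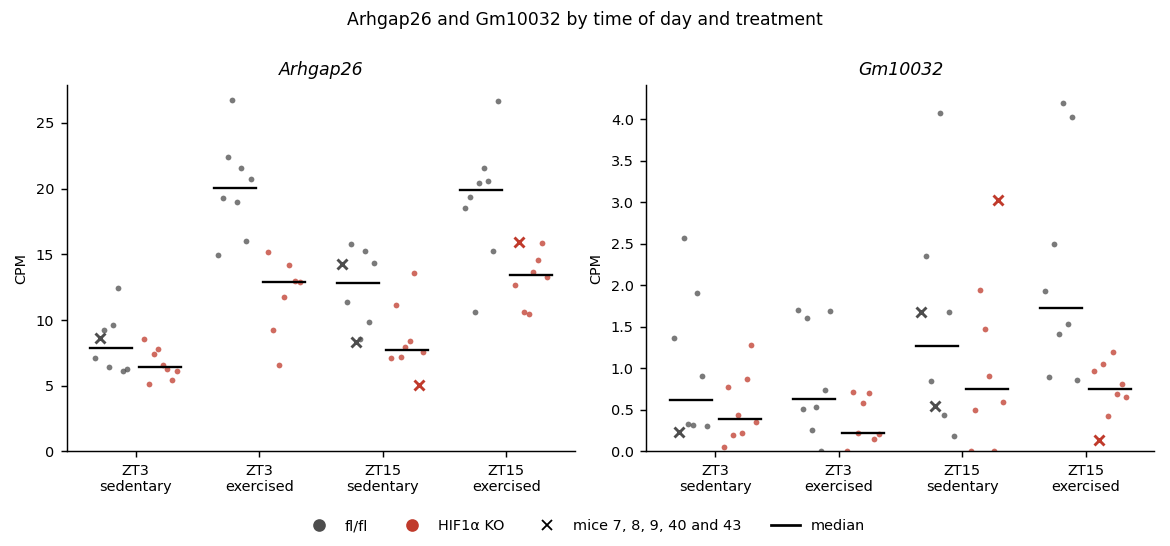
CPM (linear axes from 0) of Arhgap26 and Gm10032 in every library by time of day and treatment, with fl/fl in gray, HIF1α KO in red, crosses for the 5 libraries nearer to the other genotype, and lines at the medians. Exercised medians of Arhgap26 are above the sedentary ones in both genotypes (20.01 against 7.88 CPM in fl/fl mice at ZT3), and Gm10032 is higher at ZT15.

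Sex changed 5 of the 10 genes, where 25.1% of all genes were called. Gm10032 was at 0.577 ± 0.431 CPM (SD, n = 16) in fl/fl females and 2.18 ± 1.07 CPM (SD, n = 16) in fl/fl males, and at 0.295 ± 0.275 CPM (SD, n = 16) in HIF1α KO females and 1.09 ± 0.661 CPM (SD, n = 15) in HIF1α KO males. Its log2 fold change, female minus male, was −1.81 (SE 0.174, adjusted p = 3.94e-13 from edgeR), larger than its genotype difference of −1.03. Ctxn3 was at 21.5 ± 3.83 CPM (SD, n = 16) in fl/fl females and 31.01 ± 5.51 CPM (SD, n = 16) in fl/fl males, and at 16.3 ± 3.04 CPM (SD, n = 16) and 22.2 ± 3.49 CPM (SD, n = 15) in HIF1α KO mice. The mean of Ctxn3 in HIF1α KO males was thus above that in fl/fl females, and its log2 fold change between the sexes was −0.48 (SE 0.0631, adjusted p = 8.86e-09 from edgeR). Syne1 had −0.35 (adjusted p = 7.45e-07) and Pde7a −0.23 (adjusted p = 0.04998), both by edgeR and lower in females. Arhgap26 was higher in females by 0.19 (adjusted p = 0.0830 from edgeR). The 5 sex calls and the time of day calls of Gm10032 and Arhgap26 also passed with the 5 libraries left out, with 0.94 for Gm10032 and 0.28 for Arhgap26 between times.

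The genotype difference of Syne1 was wider in males, without a call for the interaction. Syne1 was at 287 ± 50.9 CPM (SD, n = 16) in fl/fl males and 184 ± 22.1 CPM (SD, n = 15) in HIF1α KO males, and at 197 ± 32.8 CPM (SD, n = 16) and 165 ± 20.7 CPM (SD, n = 16) in females. The log2 fold change was −0.63 in males and −0.25 in females, and the difference between them was 0.38 (SE 0.0997), which did not pass over all genes (adjusted p = 0.372 from edgeR, and 0.115 without the 5 libraries). The opposite order was seen for Cd28, with −2.18 in females and −1.36 in males, for 2610002M06Rik, with −0.95 and −0.53, and for Narf, with −0.60 and −0.35, and their differences did not pass either (adjusted p = 0.467, 0.462, and 0.464 from edgeR). Narf itself was at 155 ± 25.8 CPM (SD, n = 16) in fl/fl females and 131 ± 17.9 CPM (SD, n = 16) in fl/fl males, and its sex difference passed without the 5 libraries (0.15, adjusted p = 0.00838) but not with them (0.13, adjusted p = 0.136), both by edgeR. Genotype by sex was called by edgeR for 0.0394% of all genes and for 0 of the 10. By edgeR 4 of the 10 had an unadjusted p under 0.05, beside 10.5% of all genes, and DESeq2 called 0 of the 10.

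**Figure D5:**
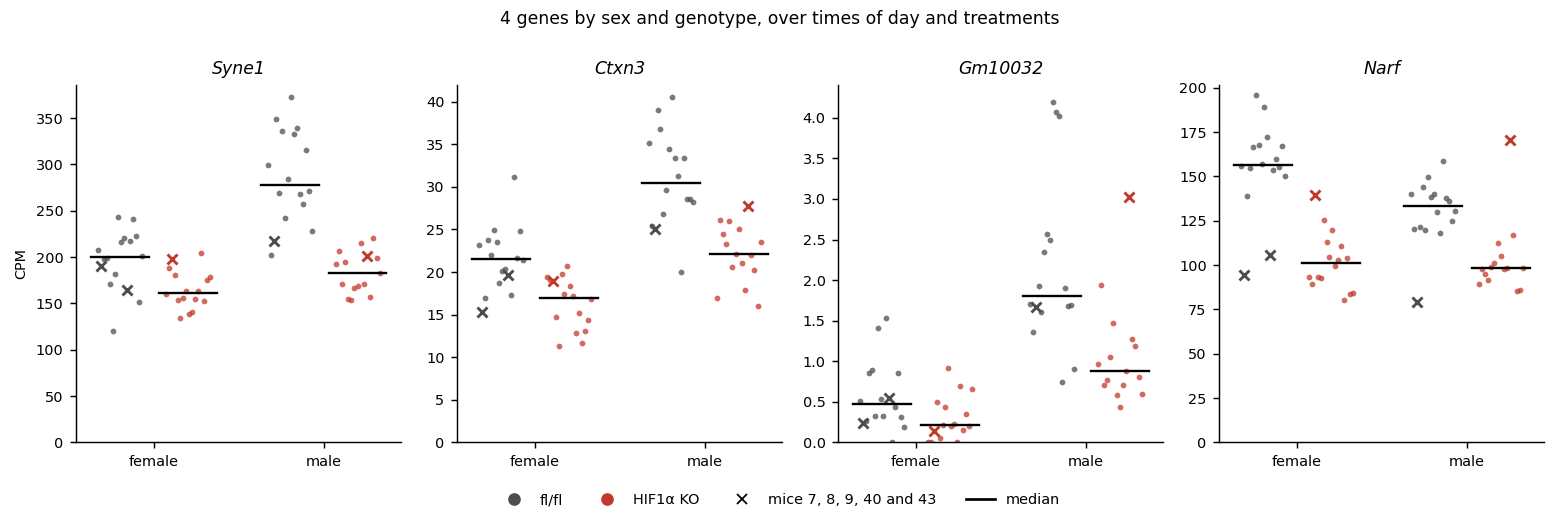
CPM (linear axes from 0) of Syne1, Ctxn3, Gm10032, and Narf in every library by sex, with fl/fl in gray, HIF1α KO in red, crosses for the 5 libraries nearer to the other genotype, and lines at the medians. Syne1, Ctxn3, and Gm10032 are higher in males, and the genotype gap of Syne1 is wider in males (means of 287 and 184 CPM) than in females (197 and 165 CPM).

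Genes that work with the 10 were compared between genotypes by edgeR, averaged over the 4 combinations, where 8.26% of all genes were called. Of 28 tested cAMP phosphodiesterases, adenylyl cyclases, and PKA subunits, 1 was lower and 0 higher. The lower gene was the adenylyl cyclase Adcy9 (log2 fold change −0.19, adjusted p = 0.0520 from edgeR).

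The nuclear envelope list held 25 tested genes, of which Sun1, the partner of nesprins in the inner membrane, and Tor1aip1 were lower (−0.13 and −0.15, adjusted p = 0.0198 and 0.0706) and the farnesyltransferase subunit Fnta was higher (0.15, adjusted p = 0.0710), all by edgeR. In the 15 catenins and cadherins, 22 centrosome and microtubule genes, and 17 ESCRT-III genes, 0 were lower and 0 higher, and both other cortexins were too low to be tested. The median log2 fold change of these lists lay between −0.08 for the catenins and cadherins and 0.06 for ESCRT-III, beside −0.00 over all genes tested. These 3 lists without a call held 4, 4, and 2 genes at an unadjusted p under 0.05, beside 20.4% of all genes, and DESeq2 called 1, 0, and 1.

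Of 58 tested marker genes of muscle fibers and the other cells in muscle, 8 were called in the same comparison (13.8%, beside 8.26% of all genes). Macrophages, endothelium, adipocytes, red cells, muscle spindles, and the 10 myofiber genes gave 0 lower and 0 higher. Of their 34 tested genes, 3 had an unadjusted p under 0.05, beside 20.4% of all genes, and DESeq2 called 0. Of 5 Schwann cell genes, all 5 were below 0 (median −0.43) and 3 passed as lower, among them Pmp22 and Mbp (−0.45 and −0.44, adjusted p = 0.0226 and 0.0338 from edgeR). The summed level over the Schwann cell list was 46.3 to 207 CPM in HIF1α KO and 55.7 to 236 CPM in fl/fl libraries. All 7 macrophage and all 5 fibroblast genes were below 0 as well (medians −0.13 and −0.12). The part of these 3 cell types in the 10 differences was not tested. Among 7 genes of nuclei at the neuromuscular junction, Musk, the receptor kinase that clusters acetylcholine receptors, was lower (28.0 ± 12.7 CPM, SD, n = 31, against 50.8 ± 25.7 CPM, SD, n = 32, log2 fold change −0.80) and the receptor subunit Chrne higher (0.23). The fibroblast gene Pdgfra was lower (−0.12), a call it lost with the 5 libraries left out (adjusted p = 0.114 from edgeR), and the satellite cell gene Myf5 higher (0.35). Ighm, the 1 tested B-cell gene of 6, was higher (log2 fold change 1.51), and its reads may be shared with other immunoglobulin genes.

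Genes next to the 10 were compared in the same way. Of 191 tested genes within 1 Mb, 4 were lower and 9 higher in HIF1α KO mice, 6.81% in all beside 8.26% of all genes tested, and their median log2 fold change was 0.01. The balance of directions depended on the window, with 3 lower and 2 higher of 80 within 500 kb and 14 lower and 11 higher of 310 within 2 Mb. Mtfr1, which lies 2290 bases from Pde7a, was higher (0.17, adjusted p = 0.0270 from edgeR), and Sav1, 24432 bases from Nin, was lower (−0.20, adjusted p = 0.00889 from edgeR). Around Cd28, 1 of 17 genes was called (Wdr12, higher), and around Ctxn3 2 of 11 (Gramd3 and Slc12a2, both lower). Faap100 and 0610009L18Rik near Narf, Rnf14 near Arhgap26, Klhdc1 and Klhdc2 near Nin, and Clu and Adra1a near Gm10032 were all higher. The remaining gene, Gm25694, was lower, at means of 0.216 CPM in HIF1α KO and 0.439 CPM in fl/fl libraries. It lies inside Syne1 on the same strand, so reads of Syne1 may be among its own.

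Once group and sex were taken out, the correlation among the 10 genes was described with and without the 5 libraries. These were recognized by the same genes deviating together, so leaving them out lowers the correlations and the residual spread by construction. Over all 63 libraries the median Pearson r of the 45 gene pairs was 0.21, and 33 pairs were positive, with the highest r of 0.75 between Narf and 2610002M06Rik. In the other 58 libraries the median was 0.0060 and 23 pairs were positive, with values from −0.57 between Syne1 and 2610002M06Rik to 0.53 between Narf and 2610002M06Rik. The points share libraries, depth, and scaling, so these values are a description. Removing the 5 libraries lowered the residual SD of Cd28 from 0.860 to 0.625 and of Narf from 0.249 to 0.164 on the log2 scale, while that of Gm10032 stayed at 0.717 and 0.715.

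The genes most like each of the 10 over the libraries, after group and sex, differed for most of them between both sets of libraries. Likeness was Pearson's r of the residuals over 63 or 58 libraries. With all 63 the 2 closest to Cd28 were Maob (r = 0.73) and Dach2 (0.64), and without the 5 they were Gm45159 (0.55) and Gm37694 (0.52). For Pde7a they changed from Fgd4 and Pon3 to Pcmtd1 and Tmpo, for Narf from Slc40a1 and B3galnt2 to Cgrrf1 and Mrpl9, for Ctnna3 from Dmd (0.71) and Gm13490 to Usp47 and Cnot2, and for Nin from Slc16a10 and Gm17354 to Abl2 and Zzef1. Syne1 kept Dst (0.79 and 0.82) among the 2, and Ctxn3 kept Ociad2 (0.77 and 0.74) and Mrln (0.63 and 0.61), which encodes the membrane peptide myoregulin of muscle. 2610002M06Rik had Tspan8 (0.83 and 0.73) among the 2 in both, and Arhgap26 had Pard3 (0.67 and 0.65). For Gm10032 the highest r was 0.54 with Pgls, and 0.58 with Mthfd2 without the 5 libraries.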

How the data were processed

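RNA-seq was performed on gastrocnemius muscle of 64 mice. The authors aligned reads to mm10 with STAR and deposited raw featureCounts counts per gene, and the versions, annotation release, and strand setting are not given in the sources used here. Of 55401 identifiers, 55141 matched GENCODE M21, which gave names and positions. Groups came from the sample titles. Genes were filtered with filterByExpr, scaled by TMM, and tested with edgeR 4.0.16 and limma 3.58.1 in R 4.3.3 (quasi-likelihood test, 8 groups plus sex, 63 libraries, Benjamini-Hochberg adjusted p under 0.1 over all 15241 genes). CPM were computed from TMM-scaled library sizes. Genotype within each sex and genotype by sex came from a fit of group and sex combined. P-values measure the spread between these mice. Tables and figures were made with Python 3.11.15, pandas 2.3.3, and numpy 2.4.6.

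On simulated counts for the average genotype comparison over 15146 genes, 59 of 67 genes changed by 0.5 on the log2 scale, 65 of 69 changed by 1, and 60 of 64 changed by 2 were recovered, with 30 false calls. These false calls were a larger share of all calls in this simulation than the threshold of 0.1 aims at.

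The 10 genes and the gene and marker lists were chosen with earlier results of these data known. The genes named in the text are these 10, called genes of the lists (at most the 4 with the smallest p per list), called genes within 1 Mb of the 10, and the 2 genes with the highest residual correlation to each. Alternatives were DESeq2 1.42.0, other size factors and filters, all 64 libraries, leaving out 3 libraries under 5000000 counts, 4 blocks of 16 mouse numbers as a covariate, no sex term, a threshold of 0.05, neighbor windows of 500 kb and 2 Mb, and the median in place of the mean. The analysis without the 5 libraries nearer to the other genotype was chosen after seeing the data. RefSeq promoter windows matched 5 of the 10 genes. Intervals and the floor of 3 counts cover sampling error only. Some genes of the lists, and the lists whose call rested on them, are not reported here.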

Additional observations from a re-analysis of the deposited data

Results flagged for a closer look

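In 80 groups of 7 or 8 libraries (10 genes by 8 groups), 8 had a lowest or highest log2 CPM farther from the others than Dixon's 95% limit, where chance gives about 1 in 20. Of the 8 values, 6 were in the 5 libraries nearer to the other genotype, and the measure that marks a value here overlaps with the one that marked those libraries. In the library labelled fl/fl from mouse 7 (sedentary, ZT3), Cd28 was low at 0.864 CPM and Pde7a at 63.1 CPM. Pde7a was low at 71.7 CPM in mouse 40, labelled fl/fl (sedentary, ZT15). In the library labelled HIF1α KO from mouse 43 (sedentary, ZT15), Narf was high at 170 CPM and 2610002M06Rik at 12.5 CPM. 2610002M06Rik was high at 11.6 CPM in mouse 9, labelled HIF1α KO (exercised, ZT15). Outside these libraries, Cd28 was low at 0.196 CPM in HIF1α KO mouse 30 (sedentary, ZT3). That value rests on 2 counts and only just passed the limit (gap over range 0.535 against 0.526). Pde7a was high at 229 CPM in fl/fl mouse 37 (exercised, ZT15).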

How the results depend on the processing

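No paired analysis was possible because each mouse number occurs in 1 library, so groups share no replicate numbers. The calls rest on few counts for Cd28 and Gm10032, and whole-gene Hif1a counts do not check the genotype labels. The average genotype comparison called 1259 genes, 778 with no filter and 695 at 0.05. In sedentary mice at ZT3 it called 61 genes, 97 with DESeq2, 35 with no filter, 106 with mouse-number blocks, 18 with no sex term, 111 without the 5 libraries, and 33 at 0.05. In exercised mice at ZT3 these were 218 genes, 392 with DESeq2, 49 with no filter, 142 without libraries under 5000000 counts, 59 with blocks, 38 with no sex term, and 50 at 0.05. In sedentary mice at ZT15 they were 7 genes, 19 with DESeq2, 1 with no filter, 4 with at least 10 counts in every library, 0 without libraries under 5000000 counts (edgeR), 16 with blocks, and 70 without the 5 libraries. In exercised mice at ZT15 they were 61 genes, 94 with DESeq2, 25 with no filter, 10 with no sex term, 126 without the 5 libraries, and 37 at 0.05. Blocks raised time of day from 1222 to 2010 genes and exercise from 433 to 664, and leaving out the 5 libraries raised genotype by sex from 6 to 17. The causes were not tested.

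Among the 10 genes the genotype differences kept their sign under every alternative in which they were fitted, as did the called time, exercise, and sex differences. Cd28 and Gm10032, with as few as 1 and 0 counts in a library, were not tested with at least 10 counts in every library. The sex difference of Pde7a lost its call with no filter. That of Arhgap26 lost it with no filter, without libraries under 5000000 counts, and at 0.05. Calls were gained by Syne1 with blocks for time of day (0.13) and exercise (0.16) and without the 5 libraries for time of day (0.16), and by Narf for sex with blocks (0.13), with at least 10 counts in every library (0.15), and without the 5 libraries (0.15). Small uncalled values changed sign. Without the 5 libraries this held for genotype by time in 2610002M06Rik (−0.15), Gm10032 (−0.0086), Nin (−0.034), and Pde7a (−0.052), for time of day in 2610002M06Rik (−0.043), Cd28 (−0.044), and Ctnna3 (−0.026), for exercise in Cd28 (−0.10), Ctnna3 (−0.039), and Ctxn3 (−0.034), and for genotype by sex in Arhgap26 (−0.10). Without libraries under 5000000 counts it held for Arhgap26 in genotype by sex (−0.0099) and by time (−0.040) and for Ctnna3 in time of day (−0.018). With blocks it held for Arhgap26 in genotype by sex (−0.15) and by time (−0.062), Cd28 (0.043) and Nin (−0.0072) in genotype by time, Narf in exercise (0.0027), and Pde7a in genotype by sex (0.022). It also held for Cd28 in exercise with DESeq2 (−0.014), for Ctnna3 in time of day with no filter (−0.0061) and with no sex term (−0.0022), and for Ctxn3 in exercise with all 64 libraries (−0.0025).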
